A study of Glycine max with 44 samples.

Results

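MYB transcription factors were followed in soybean root tips under aluminum. The family members were the soybean probe sets of the array whose single annotated gene symbol begins with MYB and a number, together with LOC778176, for which MYB88 is a recorded synonym. This choice used only the annotation and gave 103 probe sets for 67 genes among 37593 soybean probe sets on the array, of which 8677 for 6031 genes carry a single annotated gene. Of these, 92 probe sets for 62 genes had at least 1 group mean above background and were tested, within a total of 35289 tested soybean probe sets. Another 15 probe sets annotated to a pair of MYB genes were left out.

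Root tips 1 cm long were cut from the tap roots of the aluminum-tolerant soybean genotype PI 416937 and the aluminum-sensitive genotype Young. Seedlings were grown in hydroponics in a growth chamber with 16 h of light at 28 °C and 8 h of dark at 20 °C. They received 10 µM aluminum or 0 µM aluminum (called untreated below) for 2, 12, 48 or 72 h. The 16 groups of genotype, treatment and time held 44 Affymetrix arrays, with 2 arrays per group at 2 h and 3 per group at the later times. No group carried a transgene or an induced mutation according to the labels, and each genotype was represented by 1 line, so genotype here means the whole genetic background of that line. All PI 416937 array labels end in the letter b and no Young label does. What this letter marks is not given, and it cannot be told apart from genotype.

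MYB proteins bind DNA through repeats of a helix-turn-helix fold, and plants use a large family of them to control phenylpropanoid and flavonoid synthesis, cell shape, hormone responses and responses to drought, salt and cold. Many act in complexes with helix-loop-helix and WD-repeat partner proteins. In legume roots they are known for switching on isoflavonoid genes, whose products include defence compounds and signals to microbes. Aluminum ions in acid soil act first on the root tip, where they stop elongation, and tolerant plants often release organic acids there.

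Levels below are log2(intensity + 16) of a probe set on an array, and differences are in log2 units with the standard error of the fit. A probe set counted as called when limma's moderated test across all 35289 probe sets gave a Benjamini-Hochberg adjusted p under 0.05. Background was a level of 4.41, under which the mean levels of 95% of the 23350 probe sets for a soybean nematode and an oomycete pathogen lay. Array medians lay between 6.56 and 7.52 intensity units, and no pair of arrays was identical (highest correlation 0.9982). The labels do not tell whether replicate arrays hold separately grown plants. Any p-value here therefore reflects only how far these samples lie apart, and that spread may be technical. Probe sets ending in _s_at, _x_at or _a_at can bind transcripts of near-identical genes, and values from them are uncertain as to which copy they measure.

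The root identity of the tissue could be checked with few markers. Of the 3 root tip markers present, the phosphate transporter PHT1-3 averaged 12.46 over the 44 arrays, the nitrate transporter NRT2 5.74 and the phosphate transporter PHT1-8 5.80. The brightest of the shoot markers, a PSAD probe set, averaged 13.30, and brightness cannot be compared between probe sets. Of the 3 root tip marker probe sets present, 0 were called in any aluminum comparison, and the count at an unadjusted p under 0.05 was 1 in Young at 72 h and 0 in the other 7. Over all tested probe sets 19.2% passed that p in Young at 72 h, and 2.56% to 18.2% in the others. Called in these comparisons were 0.00283% to 4.04% of all tested probe sets. The 4 nodule marker probe sets had 1 lower call in each genotype at 48 h. Of all tested probe sets, 4.04% were called there in PI 416937 and 2.77% in Young. The nodule markers averaged 5.88 (ENOD40B), 5.51 (ENOD93), 5.44 (ENOD55-2) and 4.45 (N-26) over the 44 arrays. ENOD93 reached a group mean of 8.52 in untreated PI 416937 at 72 h.

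The family ranged from bright to barely measurable. Above background in all 16 groups were 78 of the 92 tested members. Counted over all 92, 22 members never reached a group mean of 5, and 22 never fell below 8. The brightest members were MYB176 at a mean of 13.62 over all arrays, MYB175 at 12.30, MYB112 at 11.36 and a pair of MYB50 probe sets at 11.31 and 11.24. MYB176 is known in soybean roots as an activator of a chalcone synthase gene of the isoflavonoid pathway. The dimmest tested members were MYB172 at 4.37, MYB101 at 4.39 and MYB11 at 4.39, all at background. Brightness depends on the probes as well as the transcript, so this order describes probe sets and not the abundance of the genes' transcripts.

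Untested were 11 probe sets, for MYB99, MYB164, MYB150, MYB181, MYB98, MYB172, MYB13, MYB60 and MYB14. For 5 of the genes no probe set was tested. MYB184 and MYB76 lay near background in some groups and above it in others, and a difference from a group at background is a lower limit.

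Among the tested members 57 probe sets (62.0%) spanned at least 1 log2 unit between their lowest and highest group mean, compared with 48.2% of all tested probe sets. Of these 57, 19 probe sets for 14 genes (33.3%) were highest in PI 416937 after 2 h of aluminum, the group that was highest for 10.6% of all probe sets of that span. Untreated Young at 2 h held another 8 members (14.0%), compared with 8.0% overall.

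**Figure D1:**
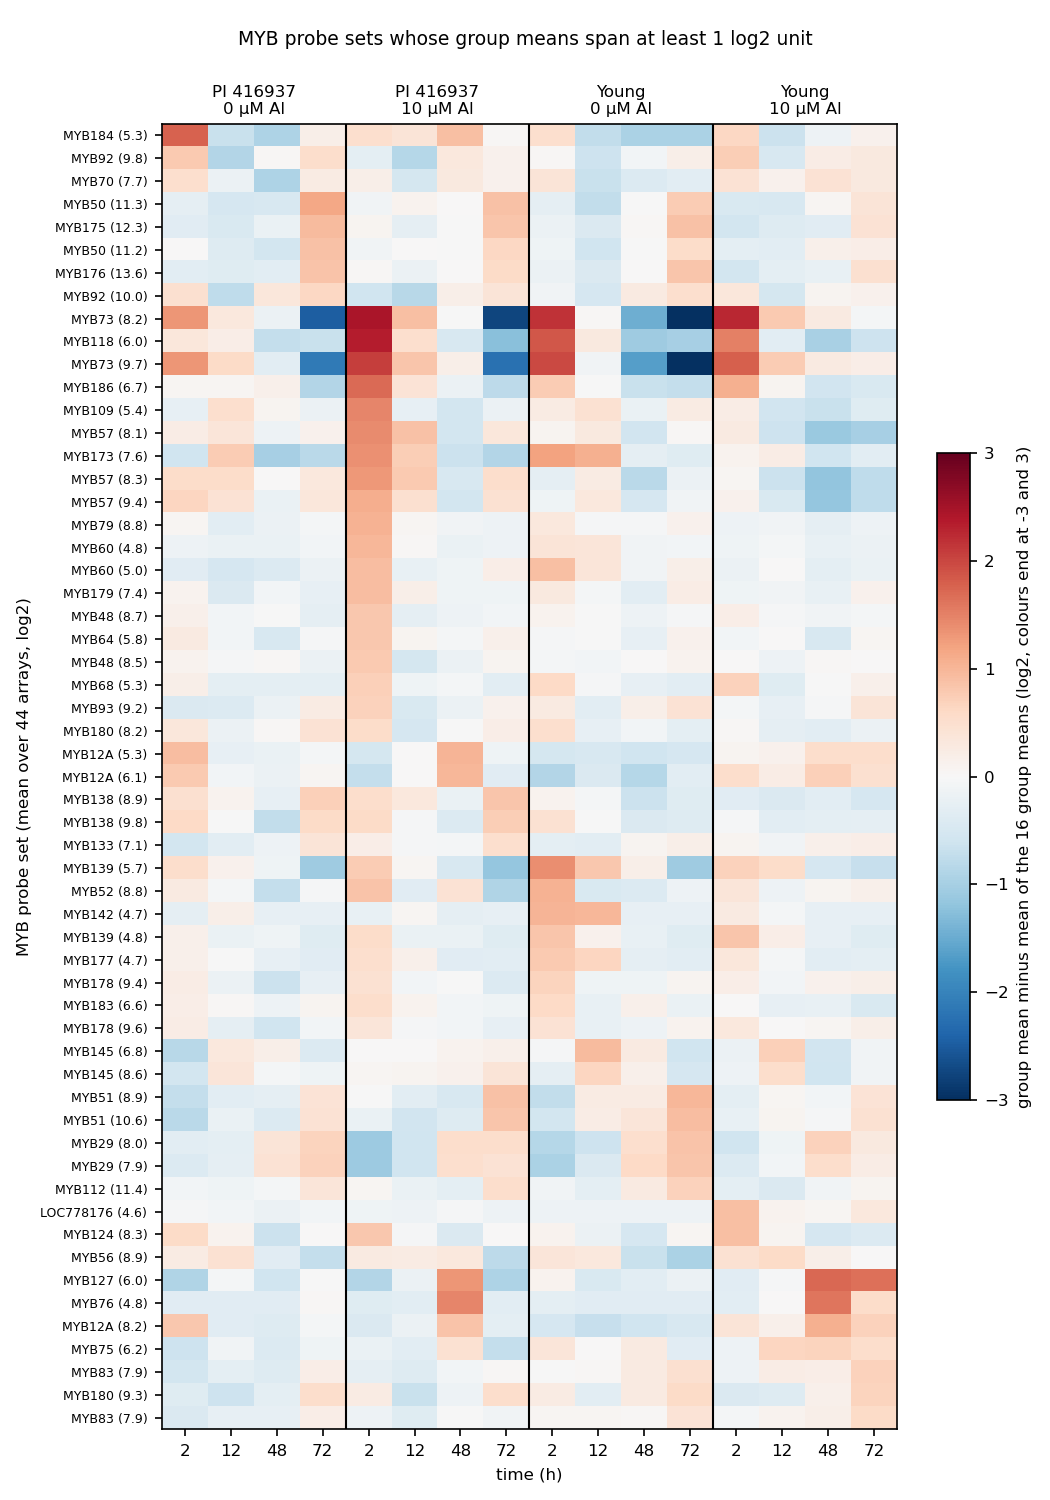
Group means of the MYB probe sets that spanned at least 1 log2 unit, drawn as the difference from each probe set's mean over the 16 groups (colour scale in log2 units, ending at -3 and 3), with groups in columns and probe sets in rows. Of the 57 rows, 19 have their highest mean in PI 416937 with aluminum at 2 h.

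Across the 8 aluminum comparisons, 13 member probe sets for 11 genes were called, giving 15 calls, all of them higher with aluminum. They fell at 2 h in PI 416937, at 48 h in both genotypes, at 72 h in Young, and once at 2 h in Young. The share of all tested probe sets called was 1.01% and 4.04% in PI 416937 at 2 h and 48 h. In Young it was 0.105%, 2.77% and 3.7% at 2, 48 and 72 h. The member shares were 6.52% and 1.09%, then 1.09%, 4.35% and 3.26%. Directions of the calls over all tested probe sets are not given, so the shared direction cannot be read as particular to the members.

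**Figure D2:**
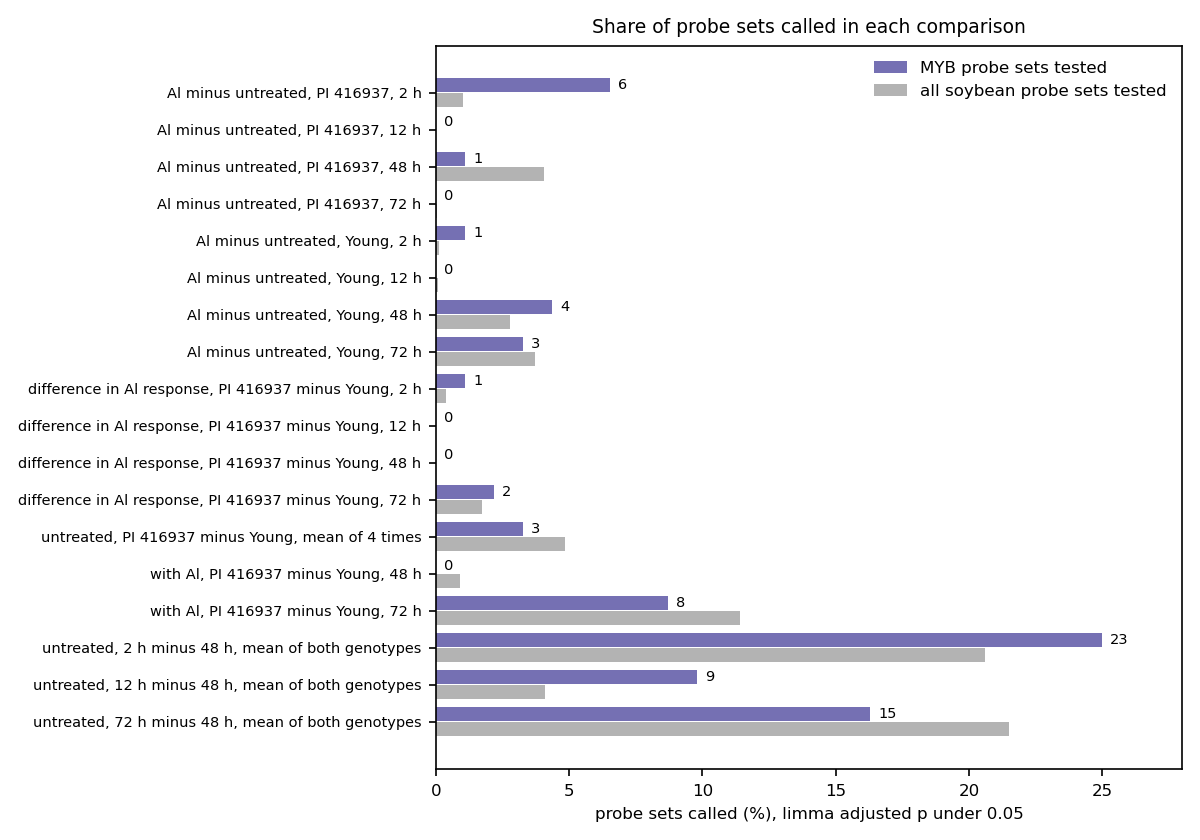
Share of the 92 tested MYB probe sets called in each comparison (percent, limma adjusted p under 0.05) beside the same share of all 35289 tested probe sets. Members stand above the background share in PI 416937 at 2 h (6.52% against 1.01%) and below it in PI 416937 at 48 h. The 6.52% includes MYB172, which exceeded background only in that aluminum group.

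After 2 h of aluminum, MYB109, MYB118 and MYB173 were higher in PI 416937 by 1.71 to 2.03 log2 units, and MYB120, MYB149 and MYB172 were higher by less than 0.5. These 6 calls, all higher, made up 6.52% of the members, where 1.01% of all tested probe sets were called. Among them, MYB172 exceeded background only in this aluminum group, so its being tested depended on the same values as its call. At an unadjusted p under 0.05, 25 members (27.2%) passed, 19 higher and 6 lower, compared with 10.2% of all probe sets. The median difference of the members was 0.19 and that of all probe sets was -0.00. These are bulk root tips, in which a change in the number of cells of a type and a change in RNA per cell cannot be told apart.

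MYB109 read 5.48 and 4.96 on the untreated PI 416937 arrays and 6.59 and 7.28 on the aluminum arrays. The groups did not overlap, and the difference was +1.71 ± 0.31 (limma adjusted p = 0.00217), or 3.28-fold on the offset scale. In Young at 2 h the same probe set read 5.57 and 5.82 untreated and 5.70 and 5.65 with aluminum, a difference of -0.02 ± 0.31. The difference between these responses was +1.74 ± 0.44 and missed the threshold (limma adjusted p = 0.0931). At 12 h the difference was negative in both genotypes, without a call. The 12 h difference was -0.76 ± 0.26 in PI 416937 and -1.02 ± 0.26 in Young (limma adjusted p = 0.104).

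MYB118, whose overexpression is known to raise drought and salt tolerance of soybean, read 6.04 and 6.88 untreated and 8.03 and 8.95 with aluminum in PI 416937 at 2 h. The difference was +2.03 ± 0.42 (limma adjusted p = 0.00695) and the groups did not overlap. The aluminum arrays of PI 416937 thus reached the range of Young, where MYB118 read 8.15 and 7.86 untreated and 8.12 and 7.17 with aluminum. Young showed a difference of -0.36 ± 0.42, and the difference between the responses was +2.39 ± 0.59 (limma adjusted p = 0.0749). The low group at 2 h was therefore untreated PI 416937, and the other 3 groups overlapped.

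MYB173, known in soybean as a salt-responsive regulator of a chalcone synthase gene, was called for a difference between the genotypes in its early response. It read 5.96 and 8.06 untreated and 8.56 and 9.43 with aluminum in PI 416937, a difference of +1.98 ± 0.49 (limma adjusted p = 0.0366). In Young it read 8.72 and 8.95 untreated and 7.95 and 7.502 with aluminum, a difference of -1.10 ± 0.49 that was not called. Groups did not overlap within either genotype, and they moved in opposite directions. The difference between the responses was +3.09 ± 0.69 (limma adjusted p = 0.0344) and was the 1 member call in that comparison, where 0.357% of all probe sets were called. MYB118, MYB109 and the _x_at probe set of MYB12A lay just past the threshold in the same comparison (limma adjusted p = 0.0749, 0.0931 and 0.0938). In it 23 of the 92 members passed an unadjusted p under 0.05, 17 with a positive and 6 with a negative difference, compared with 6.9% of all probe sets, and the median was +0.29 over the members and -0.00 over all.

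The remaining calls were small and close to background. MYB120 read 4.52 and 4.61 untreated and 5.04 and 4.92 with aluminum, a difference of +0.42 ± 0.09 (limma adjusted p = 0.00692). MYB149 read 4.52 and 4.41, then 4.79 and 5.13, a difference of +0.49 ± 0.12 (limma adjusted p = 0.0356). For MYB172 the arrays read 4.36 and 4.36, then 4.51 and 4.39, and the called difference of +0.09 ± 0.02 (limma adjusted p = 0.0214) lay at the background level. Without the first aluminum array the MYB172 difference was +0.03 (limma adjusted p = 0.414). MYB120 was not called without the first array of either group (limma adjusted p = 0.0624 and 0.0683), and MYB149 not without either untreated array or the second aluminum array, when it was +0.33.

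The 3 brighter MYB12A probe sets gave values in the other direction at 2 h in PI 416937, from -1.24 to -1.49, and none was called. MYB12A carries the name of the flavonol regulator MYB12 of Arabidopsis. Its _x_at probe set differed by -1.49 ± 0.53 in PI 416937 (limma adjusted p = 0.239) and by +1.42 ± 0.53 in Young (limma adjusted p = 0.882). The difference between those responses was -2.91 ± 0.75 (limma adjusted p = 0.0938).

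**Figure D3:**
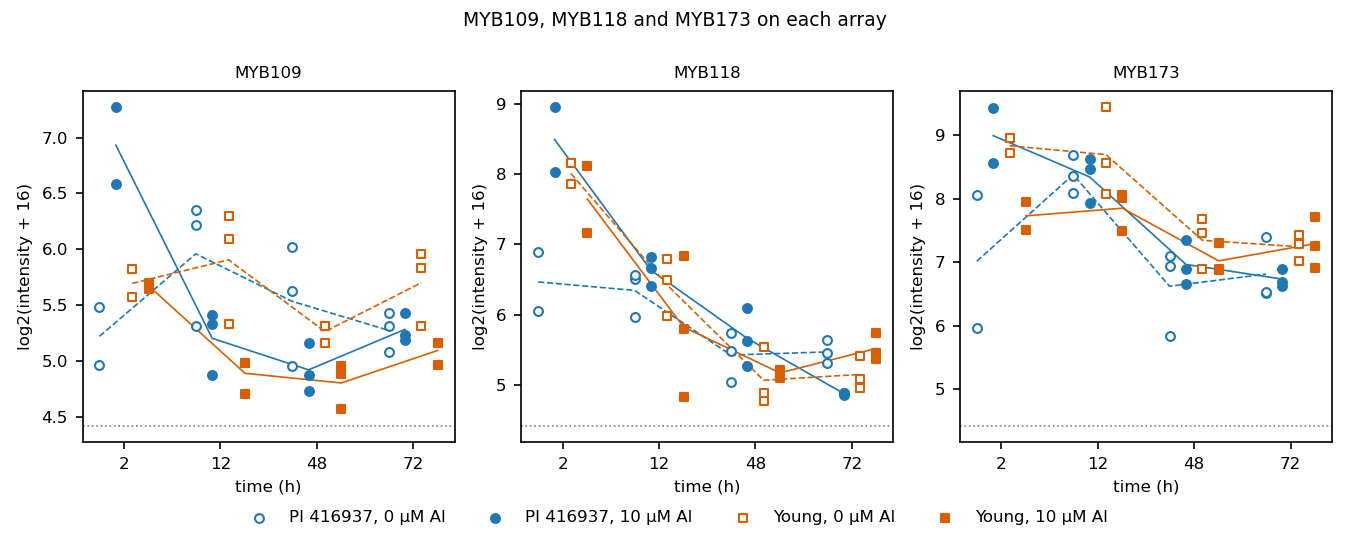
Levels of the MYB109, MYB118 and MYB173 probe sets by time (h, evenly spaced and not to scale) in the 4 combinations of genotype and treatment, log2(intensity + 16), with a point per array and lines through the group means (dotted line, background). At 2 h MYB173 reads 8.56 and 9.43 in PI 416937 with aluminum and 7.95 and 7.502 in Young with aluminum.

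The 2 h calls in PI 416937 rest on 2 arrays per group and on the spread estimated from all groups. For the fits that follow, the share of all tested probe sets called is not given. Their counts can therefore not be read as particular to the members. The count was 5 without the first untreated array, 3 without the second untreated array, 11 without the first aluminum array, 2 without the second aluminum array, and 0 when the 4 arrays were fitted alone. MYB109 was no longer called without the second array of either group (limma adjusted p = 0.0715 and 0.145). MYB118 was not called without the first untreated array (+1.61, limma adjusted p = 0.103) or the second aluminum array (+1.56, limma adjusted p = 0.352). MYB173 was not called without the same arrays (+0.93, limma adjusted p = 0.352, and +1.55, limma adjusted p = 0.733). Its difference between responses was not called without any of 5 of the 8 arrays, with values from +2.04 to +3.203 and the smallest adjusted p of those 5 at 0.0591.

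Genes of green tissue were measured beside these members. The 16 probe sets for 6 photosynthesis genes (PSAD, CAB3, RCA14, RCAALPHA, RCA11 and RCABETA) had a median difference of +1.30 in PI 416937 at 2 h and -0.00 in Young, and 9 of the 16 were highest in PI 416937 with aluminum at 2 h. That group was highest for 10.6% of all tested probe sets that spanned at least 1 log2 unit. None of the 16 was called, and 5 passed an unadjusted p under 0.05 in PI 416937 by limma, compared with 10.2% of all. Their mean level was 6.59 and 6.26 on the untreated PI 416937 arrays and 7.25 and 7.83 on the aluminum arrays, compared with 6.18 to 6.31 on the 4 Young arrays at 2 h. Their summed intensity was 11114 to 14674 untreated and 13370 to 13848 with aluminum in PI 416937. In Young at 2 h the sums were 10116 to 10224 untreated and 9466 to 10868 with aluminum. Most of each sum at 2 h came from the brightest PSAD probe set, so the sums describe mainly that probe set. In PI 416937 it read 13.17 and 13.74 untreated and 13.38 and 12.80 with aluminum. The rubisco activase probe set RCA14 of suffix _a_at read 4.51 and 5.16, then 6.93 and 8.34. Not every probe set rose. RCA11 read 6.72 and 6.12, then 6.44 and 6.15, and a CAB3 probe set read 7.33 and 7.97, then 7.60 and 7.24. In the groups of the later times the mean level of an array lay between 5.95 and 8.36, with the highest value in untreated Young at 12 h. All but 1 of the 16 (a CAB3 probe set) were above background in all groups. The part of green tissue or light in the 2 h member values was not tested.

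In Young at 2 h the 1 member call was LOC778176, in a comparison with 0.105% of all probe sets called. It read 4.40 and 4.43 untreated, next to background, and 6.07 and 4.89 with aluminum. The groups did not overlap and the difference was +1.06 ± 0.23 (limma adjusted p = 0.0497). This standard error uses a spread shared by all 16 groups and does not measure that between the 2 aluminum arrays. Without the first aluminum array the difference was +0.47, and the count was 0. The call was also absent without either untreated array (limma adjusted p = 0.227 and 0.0913) and with the 4 arrays fitted alone. With the replicate number as a block it ended as well, with a count of 0.

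Elsewhere LOC778176 stayed near background. Its aluminum differences in PI 416937 were -0.11, -0.07, +0.14 and -0.07 at 2, 12, 48 and 72 h. In Young they were +0.25 at 12 h, +0.19 at 48 h and +0.48 at 72 h (limma adjusted p = 0.139), where the aluminum arrays read 4.56, 5.37 and 4.77. The differences between responses were -1.18 at 2 h (limma adjusted p = 0.126), -0.32 at 12 h, -0.05 at 48 h and -0.55 at 72 h. Between genotypes LOC778176 differed by +0.06 untreated, by -0.08 with aluminum at 48 h and by -0.47 with aluminum at 72 h (limma adjusted p = 0.099). Its untreated levels at 2, 12 and 72 h were within 0.07 of that at 48 h.

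At 12 h no member was called in either genotype by limma. In PI 416937 the call share was 0.00283% of all probe sets, and 4 members passed an unadjusted p under 0.05, compared with 4.49% of all probe sets. The largest member differences there were MYB184 at +1.05, MYB109 at -0.76 and MYB179 at +0.63. In Young the call share was 0.0822%, and 8 members passed an unadjusted p under 0.05, 2 higher and 6 lower, compared with 8.09% of all. MYB142 at -1.06 (limma adjusted p = 0.317), MYB109 at -1.02 and MYB57 at -0.91 (limma adjusted p = 0.657) led this comparison. The 16 photosynthesis probe sets had a median of -0.96 in it, with 0 called by limma and 6 at an unadjusted p under 0.05, and their part in the member values was not tested. The count in Young was 2 without the second untreated array and 1 without the third aluminum array. No probe set at all was called for the difference between responses at 12 h (0% by limma), and 4 members passed an unadjusted p under 0.05, compared with 3.48% of all.

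At 48 h MYB76 was higher with aluminum in both genotypes, and MYB12A and MYB73 were called in Young. MYB76 is known to raise salt and freezing tolerance when expressed in Arabidopsis. The 1 member call in PI 416937 was among 4.04% of all probe sets called, and the 4 member calls in Young, for 3 genes, were among 2.77%. At an unadjusted p under 0.05, 16.3% of members passed in PI 416937, compared with 18.2% of all probe sets, and 12.0% in Young, compared with 13.6%, so the members lay near the background.

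Untreated PI 416937 arrays at 48 h read 4.41, 4.43 and 4.42 for MYB76, next to background, and the aluminum arrays read 7.24, 6.71 and 4.74. The difference was +1.81 ± 0.41 (limma adjusted p = 0.00885). In Young MYB76 read 4.41, 4.42 and 4.42 untreated and 5.49, 6.09 and 7.51 with aluminum, a difference of +1.95 ± 0.41 (limma adjusted p = 0.00569). Groups did not overlap in either genotype. The responses differed by -0.13 ± 0.59. The spread among aluminum arrays was wide in both genotypes, while the untreated arrays all lay within 0.02 of the background level. In PI 416937 the standard deviation was 1.32 with aluminum and 0.01 untreated. The standard errors and p-values use a spread shared by all 16 groups, so they do not measure the spread of these aluminum arrays. At 72 h in Young MYB76 read 4.84, 5.39 and 5.73 with aluminum, and the difference of +0.90 was not called (limma adjusted p = 0.229). Without the first or the second aluminum array of PI 416937 no member was called there (+1.31, limma adjusted p = 0.0944, and +1.57, limma adjusted p = 0.0842), and in Young MYB76 was not called without the third aluminum array (+1.37, limma adjusted p = 0.0626).

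A pair of MYB12A probe sets was called in Young at 48 h. The brightest MYB12A probe set, of suffix _at, read 7.72, 7.05 and 7.94 untreated and 9.23, 9.21 and 9.28 with aluminum, a difference of +1.67 ± 0.45 (limma adjusted p = 0.0365). Its _x_at probe set read 5.05, 4.58 and 6.01 untreated and 6.73, 6.66 and 6.94 with aluminum, a difference of +1.56 ± 0.43 (limma adjusted p = 0.0412). Both probe sets separated the treatments on every array. In PI 416937 the 3 brighter MYB12A probe sets differed by +1.16 to +1.25, without a call, and the difference between the genotypes' responses was -0.41 for the brightest probe set. Leaving out any of the 6 Young arrays ended the call of the brightest probe set, with values from +1.41 to +1.85, and leaving out any but the third untreated array ended that of the _x_at probe set, with values from +1.25 to +1.62.

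MYB73, which is known to raise lipid content when expressed in Arabidopsis, read 8.79, 8.95 and 6.72 untreated and 10.67, 10.76 and 8.86 with aluminum in Young at 48 h on its _at probe set. The groups overlapped, and the difference of +1.94 ± 0.54 was called (limma adjusted p = 0.0442). Its _s_at probe set differed by +1.73 and was not called (limma adjusted p = 0.116). Replicate 3 was the lowest array in both treatments. Deviations of same-numbered arrays correlated in Young at 48 h, and within the numbers the _at probe set differed by +1.88, +1.81 and +2.15. With the replicate number as a block it was called at limma adjusted p = 0.0144. The arrays left out below each break such a pair. Without the third untreated array the _at difference was +1.23 (limma adjusted p = 0.381), and it was not called without the first or second aluminum array either (+1.66 and +1.61).

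The Young count at 48 h was 2 without the first or the third untreated array, and 1 without the first or the second aluminum array. Counts in both genotypes were 0 when the 6 arrays of a comparison were fitted alone. In PI 416937 the replicate block gave 2 calls. MYB127 differed by +1.91 ± 0.69 in PI 416937 and by +2.04 ± 0.69 in Young and was called in neither (limma adjusted p = 0.123 in both). MYB184 differed by +1.85 ± 0.60 in PI 416937 (limma adjusted p = 0.0778). The difference between responses at 48 h held 0 member calls among 0.0113% of all probe sets by limma, and 1 member passed an unadjusted p under 0.05, compared with 2.05% of all.

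**Figure D4:**
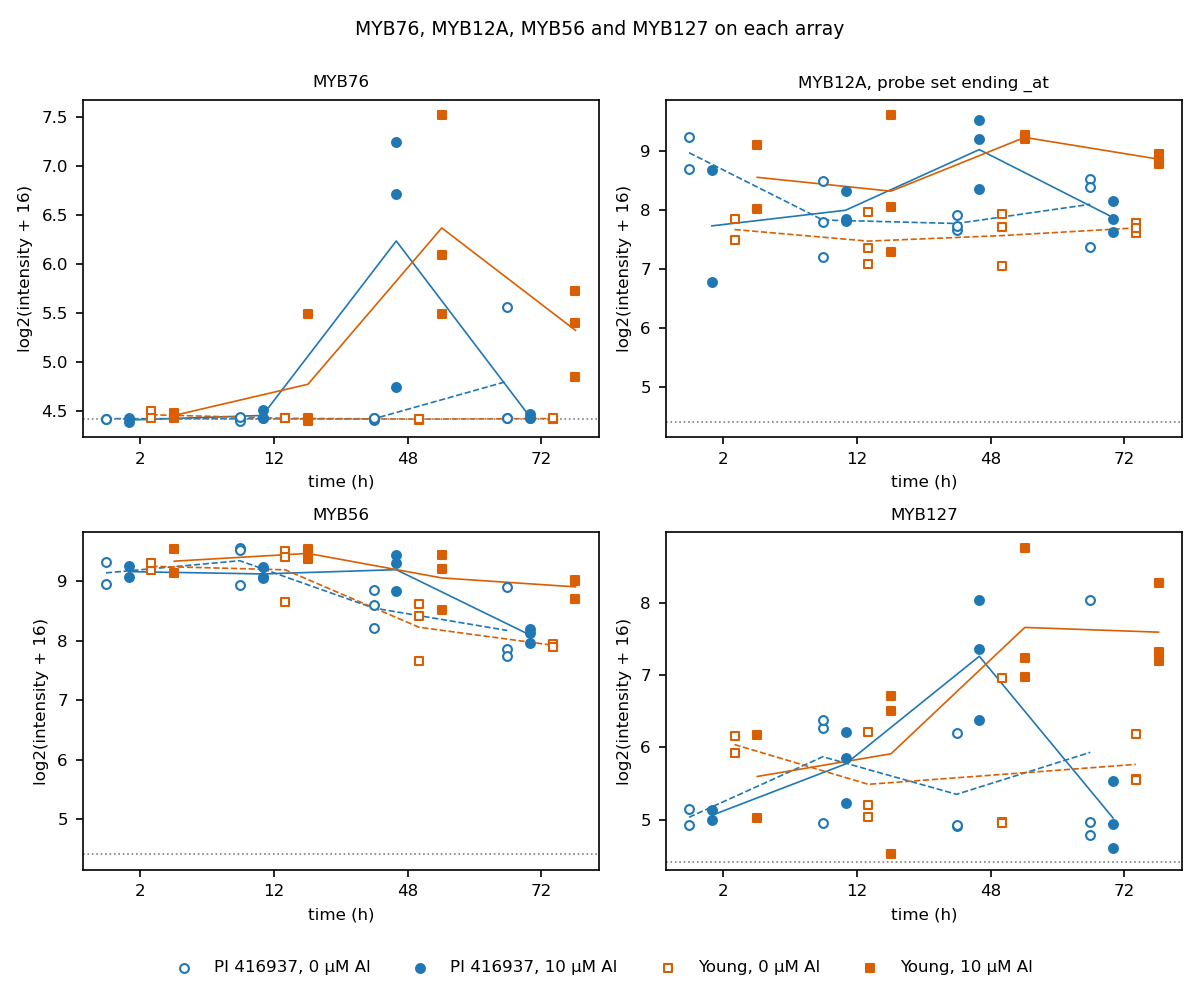
Levels of probe sets of MYB76, MYB12A, MYB56 and MYB127 by time (h, evenly spaced and not to scale) in the 4 combinations of genotype and treatment, log2(intensity + 16), with a point per array and lines through the group means (dotted line, background). MYB76 lies at 4.41 to 4.43 on all untreated arrays at 48 h and between 4.74 and 7.51 on the aluminum arrays.

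At 72 h the member calls lay in Young, where both MYB73 probe sets and MYB56 were higher with aluminum. These 3 calls for 2 genes stood among 3.7% of all probe sets called, which is close to the members' own share of 3 in 92. At an unadjusted p under 0.05, 19 members passed (20.7%), 11 higher and 8 lower, compared with 19.2% of all probe sets. PI 416937 had 0 member calls by limma, where 0.0397% of all probe sets were called and 2 members passed an unadjusted p under 0.05, compared with 2.56% of all.

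The _at probe set of MYB73 read 6.50, 6.17 and 6.06 on the untreated Young arrays and 10.37, 10.58 and 9.09 on the aluminum arrays. Every aluminum array stood more than 2 log2 units above every untreated array, and the difference was +3.77 ± 0.54 (limma adjusted p = 0.000128). The _s_at probe set read 5.22, 4.70 and 4.69 untreated and 8.71, 9.11 and 7.22 with aluminum, a difference of +3.47 ± 0.58 (limma adjusted p = 0.000695).

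In PI 416937 at 72 h the MYB73 treatments overlapped. Its _at probe set read 8.18, 7.06 and 7.88 untreated and 7.59, 7.25 and 7.92 with aluminum, a difference of -0.12, and the _s_at difference was -0.28. The responses differed by -3.89 ± 0.77 on the _at probe set (limma adjusted p = 0.00614) and by -3.76 ± 0.82 on the _s_at probe set (limma adjusted p = 0.0128). These were the 2 member calls in that comparison, where 1.71% of all probe sets were called. The count was 1 without the first untreated PI 416937 array or the second Young aluminum array, when the _s_at probe set was not called (-3.59, limma adjusted p = 0.0582, and -3.38, limma adjusted p = 0.0674).

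The large MYB73 difference in Young was set against a falling untreated level. Untreated Young read 12.32 and 11.28 at 2 h, then 10.12, 10.04 and 9.01 at 12 h, 8.79, 8.95 and 6.72 at 48 h, and 6.50, 6.17 and 6.06 at 72 h on the _at probe set. Young with aluminum read 12.23 and 11.01, then 10.33, 10.50 and 10.90, then 10.67, 10.76 and 8.86, and last 10.37, 10.58 and 9.09. The treatments overlapped at 2 h and no longer did at 12 h and 72 h, with the aluminum arrays staying between 8.86 and 10.90 from 12 h on. Untreated PI 416937 also fell, from 10.18 and 12.08 at 2 h to 8.18, 7.06 and 7.88 at 72 h, and its aluminum arrays fell with it. Plant age and time in the solution rose together in this design and cannot be told apart. The hour of day at sampling is not among the sample details used here and may also differ between the times.

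**Figure D5:**
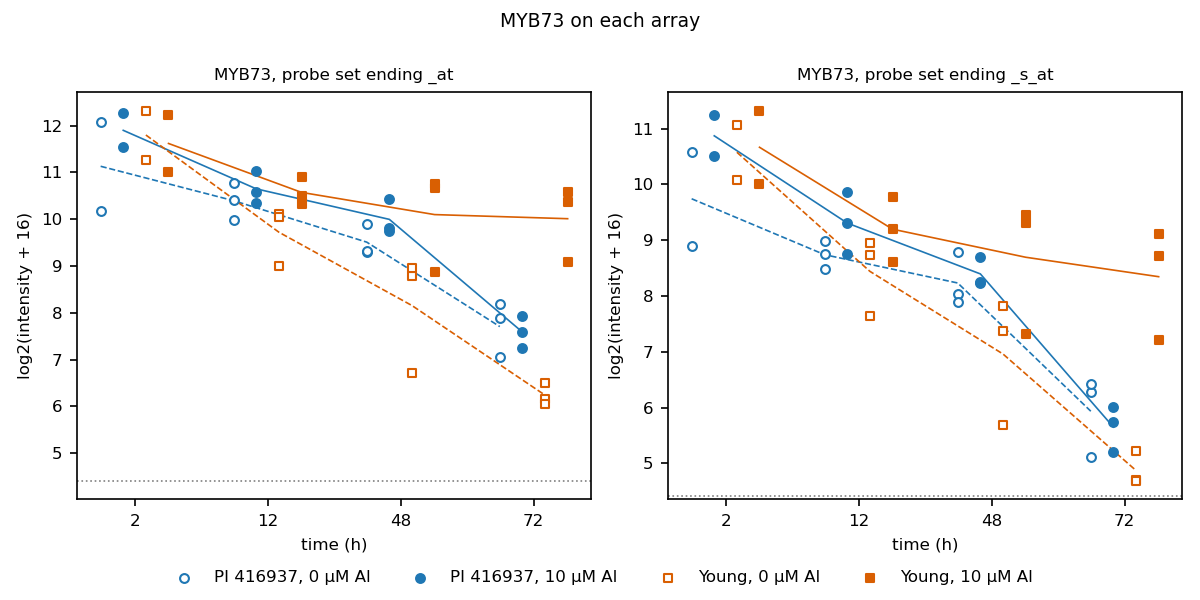
Levels of the MYB73 probe sets by time (h, evenly spaced and not to scale) in the 4 combinations of genotype and treatment, log2(intensity + 16), with a point per array and lines through the group means. At 72 h the Young aluminum arrays of the _at probe set read 9.09 to 10.58, above the untreated Young arrays at 6.06 to 6.50 and the PI 416937 arrays at 7.06 to 8.18.

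MYB56 was the other gene called. It read 7.94, 7.94 and 7.90 on untreated Young arrays at 72 h and 8.70, 8.998 and 9.02 with aluminum, without overlap. The difference was +0.98 ± 0.27 (limma adjusted p = 0.037), and in PI 416937 it was -0.08. The responses differed by -1.06, which was not called (limma adjusted p = 0.173). Over the 16 group means MYB56 correlated with the 2 MYB73 probe sets at r = 0.91 and 0.88, a description over groups that share the same arrays. The MYB56 call was absent without any of 5 of the 6 arrays, with values from +0.92 to +0.99. The Young count at 72 h was 5 without the first aluminum array and 8 when its 6 arrays were fitted alone. Shares of all tested probe sets called in these fits are not given.

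The largest differences in PI 416937 at 72 h were MYB127 at -0.91, MYB52 at -0.86 and MYB75 at -0.59, none of them called. For MYB127 the first untreated array read 8.05 and the others 4.79 and 4.96, and without that array the difference was +0.15. The count there was 1 without the second aluminum array.

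With aluminum at 72 h the genotypes differed in 8 member probe sets, 5 higher and 3 lower in PI 416937, among 11.4% of all probe sets called. MYB57 was higher in PI 416937 and MYB73 and MYB127 were higher in Young. MYB57 on its brightest probe set, of suffix _at, read 9.42, 10.24 and 10.05 in PI 416937 and 8.98, 8.20 and 8.86 in Young, a difference of +1.22 ± 0.24 (limma adjusted p = 0.000978). Its _s_at probe set differed by +1.31 ± 0.31 (limma adjusted p = 0.00551). All PI 416937 arrays of the brightest probe set were above all Young arrays. The aluminum differences of the 3 MYB57 probe sets in Young were -0.77 to -0.91 at 12 h, -0.38 to -0.65 at 48 h and -0.59 to -1.03 at 72 h, none of them called.

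MYB73 was lower in PI 416937 with aluminum at 72 h by -2.70 ± 0.58 on the _s_at probe set (limma adjusted p = 0.00249) and by -2.42 ± 0.54 on the _at probe set (limma adjusted p = 0.00354). MYB127 read 5.53, 4.60 and 4.93 in PI 416937 and 7.32, 7.19 and 8.28 in Young, a difference of -2.58 ± 0.69 (limma adjusted p = 0.0138). MYB127 was not called without the second PI 416937 array (-2.37, limma adjusted p = 0.0571) or the third Young array (-2.23, limma adjusted p = 0.0775). Young was thus the higher genotype for both genes by more than the spread among its arrays.

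MYB138 was higher in PI 416937 on both of its probe sets. The larger difference came from the dimmer of them, which read 9.58, 9.64 and 9.94 in PI 416937 and 8.63, 7.43 and 9.12 in Young and differed by +1.33 ± 0.32 (limma adjusted p = 0.00601). The other probe set differed by +0.99 ± 0.31 (limma adjusted p = 0.0344). Without the second Young array these differences were +0.85 (limma adjusted p = 0.116) and +0.65 (limma adjusted p = 0.313), and the member count was 4. MYB11 was called at +0.08 ± 0.02 (limma adjusted p = 0.0293) with 1 PI 416937 array at 4.57 and the other 5 arrays at 4.38 to 4.42, at or next to background, and at +0.02 without that array. This probe set passed the background filter only through the PI 416937 aluminum group at 72 h.

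At 48 h with aluminum no member differed by the limma call between the genotypes, where 0.89% of all probe sets were called and 3 members passed an unadjusted p under 0.05, compared with 6.48% of all. MYB57 was first by p at +0.61 (limma adjusted p = 0.471).

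Untreated roots, averaged over the 4 times, differed between genotypes in 3 members among 4.84% of all probe sets called. MYB173 was lower in PI 416937 by -0.82 ± 0.21 (limma adjusted p = 0.0163). MYB57 on its _s_at probe set was higher by +0.60 ± 0.16 (limma adjusted p = 0.0257), and MYB12A on its _x_at probe set by +0.77 ± 0.23 (limma adjusted p = 0.0457). The other probe sets of both genes were not called. On these MYB57 differed by +0.41 (limma adjusted p = 0.0559) and +0.20 (limma adjusted p = 0.787). MYB12A differed by +0.63, by +0.57 on its brightest probe set (limma adjusted p = 0.215) and by -0.00. The MYB173 call was absent without the first untreated PI 416937 array at 2 h (-0.56, limma adjusted p = 0.0943), which read 5.96. The MYB57 call was absent without any of 5 of the 22 arrays and the MYB12A call without any of 15. Over the single arrays left out, the count ranged from 1 to 5.

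Time in untreated roots gave more member calls than aluminum, in comparisons that averaged over both genotypes and so held more arrays. The same held over all tested probe sets, so it is not a trait of the members. At 2, 12 and 72 h against 48 h, 25%, 9.78% and 16.3% of members were called. The shares of all tested probe sets were 20.6%, 4.1% and 21.5%. Between 2 h and 48 h, over both genotypes, 23 members were called, 19 higher and 4 lower at 2 h, among 20.6% of all probe sets. MYB118 was higher at 2 h by +1.99 ± 0.27 (limma adjusted p = 9.14e-06). MYB73 was higher by +2.63 ± 0.43 on its _at probe set (limma adjusted p = 8.46e-05) and by +2.56 on its _s_at probe set. MYB184 was higher by +2.09 ± 0.47 (limma adjusted p = 0.00224), with 2 h arrays from 4.89 to 7.60 and 48 h arrays from 4.41 to 4.46.

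The other leading members at 2 h differed by about 1 log2 unit or less. MYB138 was higher by +1.11, MYB124 by +0.91, MYB178 by +0.83 and +0.70 on 2 probe sets, MYB136 by +0.54 and MYB120 by +0.24. MYB29, known in soybean as an activator of isoflavonoid gene promoters, was lower at 2 h by -1.20 and -1.03 on 2 probe sets. The MYB29 difference was -0.71 and -0.64 without the second untreated PI 416937 array at 2 h, and not called. The count of 23 was 11 without that array and 15 without the first untreated Young array at 2 h.

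Between 12 h and 48 h, 9 members were called, 6 higher and 3 lower at 12 h, among 4.1% of all probe sets. MYB173 was higher by +1.55 ± 0.28 (limma adjusted p = 0.00202), with 12 h arrays from 8.08 to 9.45 and 48 h arrays from 5.83 to 7.68 and no overlap. MYB118 was higher by +1.14, MYB56 by +0.88, MYB57 by +0.79 and +0.73 and MYB107 by +0.34. MYB92, which like MYB76 is known for stress tolerance in Arabidopsis, was lower by -0.93, and MYB29 was lower by -0.92 and -0.87.

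Between 72 h and 48 h, 15 members were called, 11 higher and 4 lower at 72 h, among 21.5% of all probe sets. MYB73 fell by 2.19 and 1.86 on its probe sets. MYB176, MYB175 and both bright MYB50 probe sets were called higher at 72 h, while MYB112 was not. MYB176 read 14.64, 14.63 and 14.08 in untreated PI 416937 at 72 h and 13.64, 13.21 and 13.01 at 48 h. In untreated Young MYB176 read 14.67, 14.33 and 14.31 at 72 h and 13.27, 13.79 and 13.79 at 48 h. The groups did not overlap in either genotype, and the difference was +0.99 ± 0.22 (limma adjusted p = 0.0025).

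MYB175 was higher by +1.003 at 72 h, and MYB50 by +1.21 and +1.01 on 2 probe sets. MYB176 and MYB175 are measured by _x_at probe sets of like name, and their group means correlated at r = 0.99. Such probe sets may bind each other's transcripts. MYB51 was higher by +0.72 and +0.70, MYB138 by +0.68 and MYB124 by +0.61, while MYB139 was lower by -1.09 and MYB107 by -0.32. MYB176 was called in no aluminum comparison, where its differences ran from -0.38 to +0.35. The count of 15 was 9 without the first or the second untreated PI 416937 array at 72 h or without the first untreated Young array at 48 h.

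Within a genotype the time calls were fewer. The 2 h comparison held 3 member calls in PI 416937, where 2.79% of all probe sets were called, and 15 in Young, where 11.8% were. The 12 h comparison held 0 in PI 416937 (0.0708% of all) and 1 in Young (0.612%). The 72 h comparison held 12 in PI 416937 (15.8%) and 0 in Young (0.0198%). MYB118 at 2 h differed from 48 h by +1.04 in PI 416937 (limma adjusted p = 0.129) and by +2.94 in Young.

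A few enzymes of the flavonoid and isoflavonoid pathway, which several MYB proteins control, were called higher with aluminum at the same late times. Of 77 probe sets for 38 genes, 5 were higher in PI 416937 at 48 h, 7 in Young at 48 h and 7 in Young at 72 h, and none was lower, where 4.04%, 2.77% and 3.7% of all probe sets were called. The medians over the list were -0.00, +0.05 and +0.13, compared with -0.02 in each over all tested probe sets. In the other 5 aluminum comparisons 0 were called by limma, and 1 to 7 passed an unadjusted p under 0.05, compared with 2.56% to 10.2% of all. CHS1, a chalcone synthase, was called in all 3 comparisons, with differences from +1.89 to +2.87 over its called probe sets. IFS2, an isoflavone synthase, was higher by +1.24 in PI 416937 at 48 h, and by +1.49 at 48 h and +1.18 at 72 h in Young. PTS1, of glyceollin synthesis, was higher by +3.26 at 48 h and +4.34 at 72 h in Young, and it was the 1 enzyme probe set called for the difference between responses at 72 h (-5.39). Of all tested probe sets, 1.71% were called in that comparison.

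Members of other transcription factor families were also called at those times, and no difference between families was tested. Of 104 WRKY probe sets, 25 were higher in PI 416937 at 48 h, 16 in Young at 48 h, 13 in Young at 72 h and 4 in Young at 12 h. In the other 4 aluminum comparisons 0 were called by limma, with 6 to 8 at an unadjusted p under 0.05. Of all tested probe sets, 2.56% to 10.2% passed that p in those 4. Of 40 NAC probe sets, 12 were higher in PI 416937 at 48 h, 7 in Young at 48 h and 6 in Young at 72 h. In the other 5 aluminum comparisons 0 NAC probe sets were called by limma, with 1 to 8 at an unadjusted p under 0.05, compared with 2.56% to 10.2% of all. None was lower in either family. MYB probe sets at 1, 4 and 3 of 92 were called in these 3 late comparisons. There 4.04%, 2.77% and 3.7% of all tested probe sets were called, and 0.0822% in Young at 12 h. The median aluminum difference at 48 h in PI 416937 was +0.55 over the WRKY list and +0.98 over the NAC list. At 72 h the difference between responses was called lower for 10 WRKY and 3 NAC probe sets, beside the 2 probe sets of MYB73. In that comparison 1.71% of all tested probe sets were called. No probe set carried the symbols searched for helix-loop-helix or WD-repeat partners of MYB proteins.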

How the data were processed

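RNA from 44 root tip samples was hybridised to Affymetrix soybean arrays, 1 sample per array. The authors deposited a table of intensity values on a linear scale, 1 per probe set and sample; how they summarised and normalised the probes is not given in the sources used here. Without these steps the effect of the summary method on dim probe sets could not be examined. The lowest intensity was 3.22, and log2(intensity + 16) was used, which understates changes of dim probe sets. No further normalization was applied, since array medians of tested probe sets spanned 0.138 log2 units.

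Of 61170 probe sets, 37593 were for soybean, 15820 for Phytophthora sojae, 7530 for Heterodera glycines, and 227 controls were left out. Background was the 95th percentile of the mean levels of the 23350 probe sets for other organisms, 4.41. A soybean probe set was tested when a group mean exceeded it. limma 3.58.1 in R 4.3.3 fitted the 16 group means to all 44 arrays (lmFit, contrasts, eBayes with trend; 28 residual degrees of freedom), and p-values were adjusted by Benjamini-Hochberg over 35289 probe sets within each of 18 comparisons. The fit was tested on simulated data. The number of arrays limits the precision.

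Gene symbols came from the platform annotation. In an assembly table of RefSeq 94 member probe sets of 58 genes were found by gene ID, and 9 genes were not. No sequence or coordinate is printed.

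Members named with values were those called in a comparison (at most 12 by p), the 5 brightest and 3 dimmest tested, the 3 with the largest difference in each aluminum comparison without a call, and LOC778176; other members named were chosen after their values were seen. The lists were flavonoid enzymes, MYB partners, WRKY and NAC factors, and markers of shoot, nodule and root tip, matched by symbol. Members and lists were chosen with earlier results of these data known.

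Labels number the replicates in every group. Deviations of same-numbered arrays from their group means correlated at over 0.1 in every pair at 12 h (0.24 to 0.29) and 48 h (0.38 to 0.48) in Young, which met the condition for pairing there, and not in every pair elsewhere among groups of 3. Alternatives were pseudocounts of 1 and 64, no filter, quantile normalization, no trend, only the compared groups, a replicate block, and each array left out.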

Additional observations from a re-analysis of the deposited data

Results flagged for a closer look

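The aluminum response of MYB173 at 2 h differed between genotypes by a test of the difference itself, +3.09 ± 0.69 as PI 416937 minus Young (limma adjusted p = 0.0344), with both PI 416937 aluminum arrays above the untreated ones and both Young aluminum arrays below. The response of MYB73 at 72 h differed by the same test on both of its probe sets, by -3.76 ± 0.82 on the _s_at probe set (limma adjusted p = 0.0128) and by -3.89 ± 0.77 on the _at probe set (limma adjusted p = 0.00614), with all 3 Young aluminum arrays above the untreated ones and the PI 416937 arrays overlapping. The MYB173 call was lost without any of several single arrays and when only the arrays of the compared groups were fitted. The MYB73 call on the _s_at probe set was also lost without some single arrays. Groups of 2 or 3 arrays are too small to look for single arrays that stand apart.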

How the results depend on the processing

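When only the arrays of the compared groups were fitted, the counts were 0 in PI 416937 at 2 h and 48 h, in Young at 2 h and 48 h and for the difference between responses at 2 h, 8 in Young at 72 h, 1 for the difference between responses at 72 h, and 9 between 2 h and 48 h in untreated roots. A pseudocount of 1 gave 2 calls in PI 416937 at 48 h and 0 in Young at 2 h. A pseudocount of 64 gave 0 in Young at 2 h, 2 in Young at 48 h, 3 for the difference between responses at 2 h and 1 for that at 72 h. Without the background filter Young at 2 h had 2 calls, and without the trend 0. The replicate block gave 2 calls in PI 416937 at 48 h and 0 in Young at 2 h, and left the other counts within 1.5 times. Deviations of same-numbered PI 416937 arrays at 2 h correlated at -0.18, and crossing the pairs, chosen after seeing the data, gave 4 calls. Fits of 1 genotype for the time comparisons were also chosen after seeing the data. They gave 3 (PI 416937) and 15 (Young) calls at 2 h, 0 and 1 at 12 h, and 0 in Young at 72 h. Leaving out single arrays gave ranges of 2 to 11 (PI 416937, 2 h), 0 to 0 (12 h), 0 to 2 (48 h) and 0 to 1 (72 h). In Young they were 0 to 1, 0 to 2, 1 to 3 and 2 to 5. The differences between responses ranged from 0 to 12 at 2 h, where 12 came without the first PI 416937 aluminum array, 0 to 0 at 12 h and 48 h, and 1 to 3 at 72 h. Between genotypes the ranges were 1 to 5 untreated, 0 to 0 with aluminum at 48 h and 4 to 10 at 72 h. Between times they were 11 to 28, 6 to 10 and 9 to 19. Of 794 recomputed member values with 1 array left out, 195 lost a call, 3 gained one and 1 changed sign: MYB127 in PI 416937 at 72 h, whose values ran from -1.48 to +0.15. Of 695 under other settings, 138 lost a call and none changed sign. The cause of these changes was not tested, except that fewer arrays leave fewer degrees of freedom. Apart from the fits of 1 genotype, shares of all tested probe sets called are not given for these settings. The member counts above can therefore not be read as particular to the members. Groups of 2 and 3 arrays and a level of 4.41 for background limit what can be seen, and 22 members stayed under a level of 5.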

Other observations

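Among the 57 members that spanned at least 1 log2 unit, 1578 pairs of probe sets of different genes had a median correlation of 0.09 over the 16 group means, with 36 pairs over 0.8 and 22 under -0.8. The most alike were MYB176 and MYB175 (r = 0.99), MYB50 and MYB176 (0.94), MYB118 and MYB186 (0.93), MYB50 and MYB175 (0.93), and MYB179 and MYB79 (0.91). Group means share arrays and are given here as a description. MYB186, which was most like MYB118, read 6.43 and 7.16 untreated and 8.46 and 8.43 with aluminum in PI 416937 at 2 h, a difference of +1.65 ± 0.51 that was not called (limma adjusted p = 0.139).

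Probe sets of the same gene did not always move together. Among 24 genes with several probe sets, 40 pairs had both tested, with a median correlation of 0.85 over the 16 group means, and 22 pairs were over 0.8 and 11 under 0.5. The MYB73, MYB29 and MYB50 pairs reached 0.99, 0.99 and 0.98. The fourth MYB12A probe set read 4.42 to 4.51 on every array and correlated with the other 3 at -0.16 to -0.19.

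The 15 probe sets annotated to a pair of MYB genes held 0 calls in the 8 aluminum comparisons by limma. They held 4 calls between 72 h and 48 h in untreated roots, for MYB175 and MYB176 (+1.08 and +1.13) and for MYB112 and MYB50 (+0.85 and +0.77). A probe set for MYB62 and MYB52 was higher at 2 h than at 48 h (+1.12). With aluminum at 72 h a probe set for MYB169 and MYB98 was called between the genotypes (+0.08). Of all tested probe sets, 21.5% were called between 72 h and 48 h, 20.6% between 2 h and 48 h and 11.4% in this genotype comparison. Over the aluminum comparisons that share was 0.00283% to 4.04%. With 15 probe sets, these counts are not read as a trait of the MYB pairs.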
